A study of Mus musculus with 16 samples.

Results

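The 9 genes Cd4, Samd4, Gprc5c, Gpr34, Gpr162, Nrg2, Pik3ip1, Ctla2a and Gria3 encode receptors, a growth factor and signalling or regulatory proteins, and were found by symbol among the 54532 genes of the deposited tables. They were picked because their RNA was much lower in macrophages on fibronectin under IgG or under the anti-ITGAV antibody, with no cutoff stated. Their coating differences therefore are a description with no test. All 9 were among the 15469 genes that passed the filter on low counts.

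The cells were macrophages derived from marrow of the tibia of wild type C57BL/6J mice aged 2 to 3 months, raised in 15% serum with CSF-1, the macrophage growth factor, at 12 and then 120 ng/ml. The fibronectin_antiITGAV and fibronectin_IgG groups sat on dishes coated with fibronectin (10 µg/ml), an extracellular matrix protein, and the uncoated_antiITGAV and uncoated_IgG groups on normal culture dishes. For the last 24 h the cells had either a neutralizing antibody to ITGAV (integrin αV) or a control IgG, each at 10 µg/ml, and the study asked what αV integrin does in macrophages. Each of the 4 groups held 4 polyA RNA libraries. All 16 carried CSF-1, serum and an antibody, so an untreated culture was not among them. Nothing in the labels ties the replicates to separate cultures or animals, so p-values here measure only the scatter among these libraries, and that scatter may be technical.

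Integrins are paired α and β cell-surface receptors that tie the cell to its matrix and pass signals to kinases, the cytoskeleton and gene expression. CD4 is best known as the co-receptor of helper T cells, and monocytes and macrophages carry it as well. GPR34 is a G protein-coupled receptor for lysophosphatidylserine that is prominent in microglia, GPRC5C and GPR162 are orphan receptors without a settled ligand, and GRIA3 is a subunit of the AMPA-type glutamate receptor of neurons. NRG2 is a neuregulin, a ligand of the ERBB receptor tyrosine kinases. PIK3IP1 is a membrane protein that restrains phosphatidylinositol 3-kinase (PI3K), CTLA2A resembles a cysteine protease propeptide and inhibits cathepsins, and SAMD4, also called Smaug, binds RNA and recruits the machinery that represses and degrades it.

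The genes lie at 8 places in the genome (GRCm38, the files' coordinates), since Cd4 (chr6:124864692-124888221, minus strand) and Gpr162 (chr6:124858444-124863983, minus strand) are neighbours. Samd4 is at chr14:46882854-47105815, plus strand, Gprc5c at chr11:114851152-114872617, plus strand and Pik3ip1 at chr11:3330401-3342971, plus strand. Gpr34 is at chrX:13632089-13640858, plus strand, and Gria3 at chrX:41400854-41678601, plus strand. Ctla2a is at chr13:60934155-60936625, minus strand, and the place of Nrg2 is given with its values. Values are for whole genes and do not tell exons or isoforms apart. Strand was not marked in these libraries, since the second cDNA strand was made with dTTP. Reads from stretches that Gpr34 shares with Cask, which overlaps it on the opposite strand, therefore cannot be told apart by strand. Whether exons of the overlapping genes coincide was not examined. The same holds for Pik3ip1 and Gm12592, which overlaps it on the opposite strand at 0.24 to 0.30 CPM.

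The 250 bases before the RefSeq start (GRCm38.p6) are shown for Ctla2a and for its paralogue Ctla2b, because the pair differed in these libraries as described further on. Ctla2a has 2 RefSeq starts, and the window is that of the first. Capitals mark the matches to the AP-1 motif TGANTCA and to the TATA box TATAAA, the only ones in these windows among 6 motifs searched on both strands, which were these plus GTAAACA (FOXO), GAGGAAGT (PU.1), CACGTG (E-box) and GGGCGG (GC box).
Ctla2a (chr13:60936626-60936875, minus strand): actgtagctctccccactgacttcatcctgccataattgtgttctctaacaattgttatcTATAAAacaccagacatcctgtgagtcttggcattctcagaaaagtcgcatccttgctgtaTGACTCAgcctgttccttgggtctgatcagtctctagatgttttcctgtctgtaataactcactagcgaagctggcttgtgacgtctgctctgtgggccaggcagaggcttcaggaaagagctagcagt
Ctla2b (chr13:60897448-60897697, minus strand): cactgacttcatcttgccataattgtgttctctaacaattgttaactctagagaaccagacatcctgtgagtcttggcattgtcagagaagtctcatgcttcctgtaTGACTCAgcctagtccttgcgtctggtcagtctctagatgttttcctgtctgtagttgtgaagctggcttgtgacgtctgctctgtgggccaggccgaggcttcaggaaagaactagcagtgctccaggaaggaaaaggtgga
The 2 windows matched in 209 of 272 aligned columns (76.8%). Both held TGACTCA, 129 to 123 bases before the start in Ctla2a and 143 to 137 bases before it in Ctla2b, and the Ctla2a window alone held TATAAA, 190 to 185 bases before the start. Counted from the second Ctla2a start, TGACTCA lies 188 to 182 and TATAAA 249 to 244 bases before it. Of the 32851 RefSeq windows of this length, 6.75% held the AP-1 motif and 12.4% the TATA box. RefSeq windows were found for 3 of the 9 genes. That of the first Samd4 start had 3 GC boxes, at 157 to 152, 97 to 92 and 7 to 2 bases before it. That of the second Samd4 start had a GC box at 17 to 12 bases before it, and 32.7% of all windows held 1 or more. The Pik3ip1 window had no match. Whether any of these matches acts in the cells was not tested. Windows for Cd4, Gprc5c, Gpr34, Gpr162, Nrg2 and Gria3 were not used here.

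Levels were low to moderate throughout. In CPM, which scales a gene's counts to the library's TMM-adjusted total, the means over the 16 libraries ranged from 1.09 CPM for Nrg2 to 12.7 CPM for Gprc5c, which put them between the 23.0 and 47.8 percentiles of the genes tested. On the deposited FPKM scale, which divides by gene length, the order of mean levels over the 16 libraries was Gpr34 (5.62), Gprc5c (2.38), Ctla2a (1.98), Gpr162 (0.985), Cd4 (0.622), Samd4 (0.596), Pik3ip1 (0.497), Nrg2 (0.348) and Gria3 (0.186 FPKM). Within uncoated_IgG, the range of Gpr34 lay clear of that of Gprc5c and the range of Ctla2a clear of that of Gpr162, while every other pair of neighbours in the order overlapped.

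The libraries held 27995035 to 43413650 counts, and a count of 0 allows up to 3 counts, which is 0.0691 to 0.107 CPM by library (counting error only). The library fibronectin_antiITGAV 3 stood apart: it had a mitochondrial share of 3.67%, where the other 15 had 1.30 to 1.60%, and it correlated with the rest at a mean of 0.965 across genes, where they did at 0.976 to 0.983. Its departure from the mean of all libraries followed transcript GC content (Spearman's rho across genes -0.70, against -0.30 to 0.55 elsewhere; genes are not independent replicates). Some of the results that rest on it are given with and without it. Itgav RNA, which encodes the antibody's target, does not check the labels of a blocking antibody. Macrophage markers were abundant, with all 14 tested and a median of 1101 CPM, and the defining T cell marker Cd3e had 2 counts in all 16 libraries together.

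**Figure D1:**
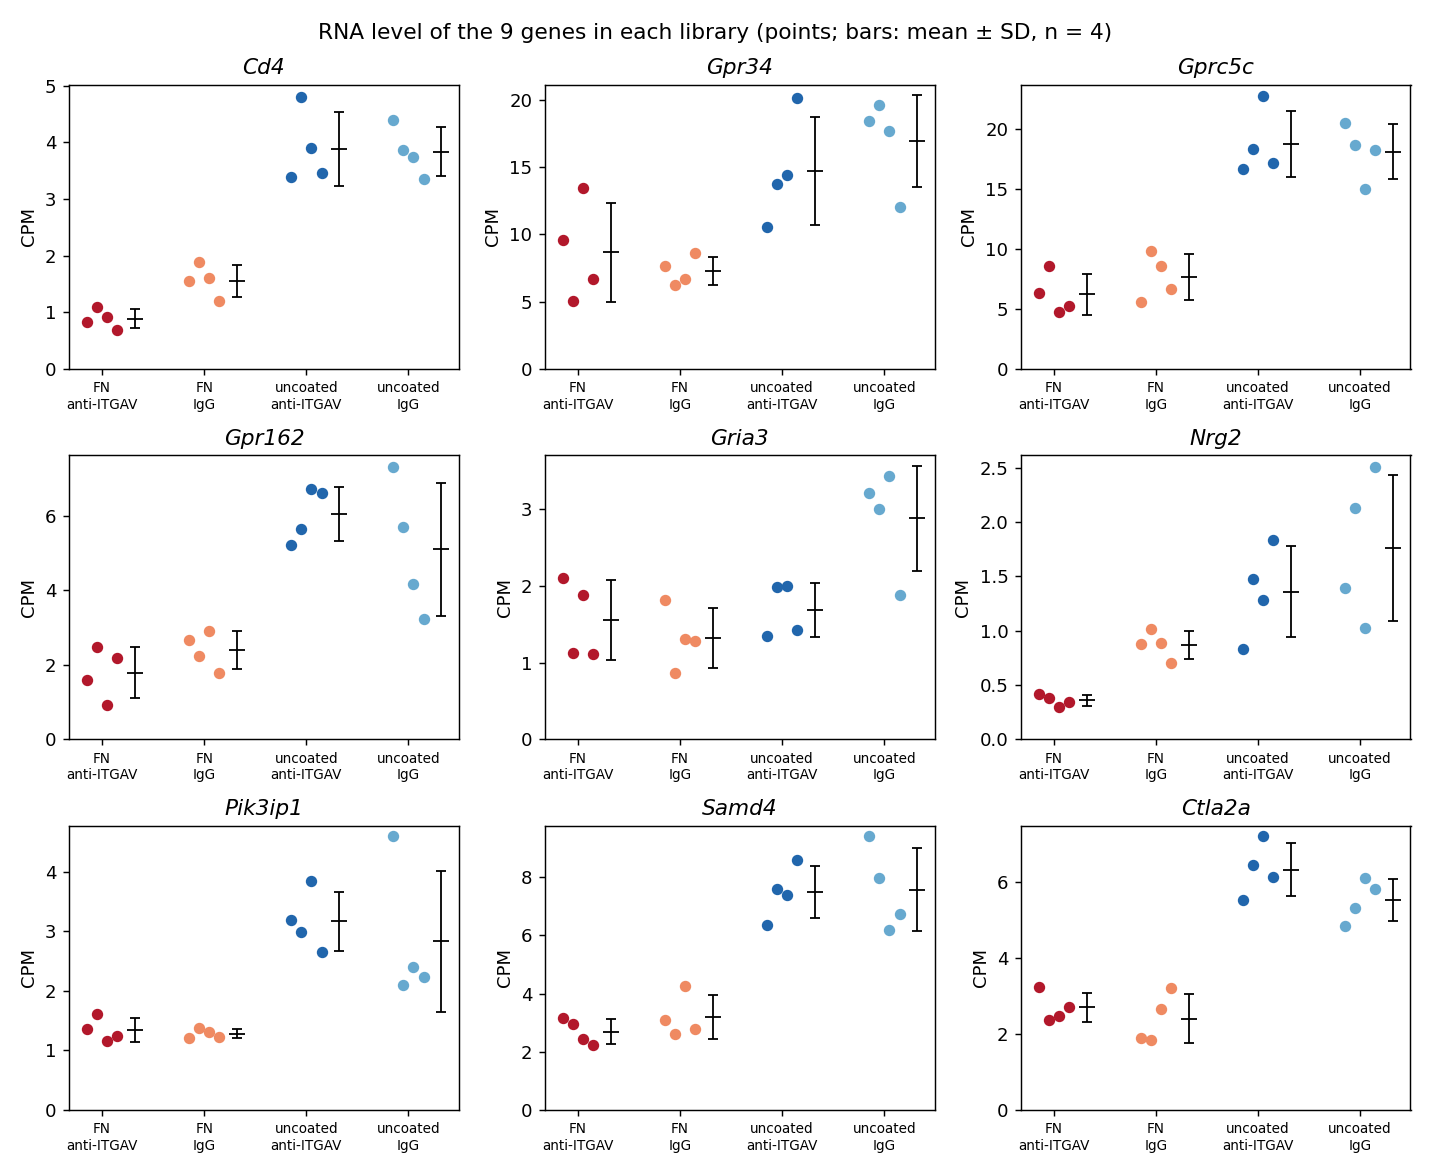
RNA level of each of the 9 genes in every library (vertical axis, CPM; 1 panel per gene; points are libraries, bars the mean ± SD, n = 4), with the groups fibronectin anti-ITGAV, fibronectin IgG, uncoated anti-ITGAV and uncoated IgG from left to right. In the panels of Cd4, Samd4, Gprc5c, Gpr162, Pik3ip1 and Ctla2a, all 8 fibronectin libraries lie below all 8 uncoated ones, and in those of Gpr34, Nrg2 and Gria3 the coatings overlap.

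Among the receptors, Cd4 showed the largest coating difference under either antibody. Cd4 had 0.830, 1.09, 0.915 and 0.694 CPM in the 4 fibronectin_antiITGAV libraries and 1.55, 1.88, 1.61 and 1.19 CPM in the 4 fibronectin_IgG libraries. On uncoated dishes it had 3.40, 4.81, 3.89 and 3.45 CPM in uncoated_antiITGAV and 4.39, 3.86, 3.74 and 3.35 CPM in uncoated_IgG. The 4 groups averaged 0.883 ± 0.167, 1.56 ± 0.284, 3.89 ± 0.652 and 3.84 ± 0.430 CPM (SD, n = 4 each). No fibronectin library reached an uncoated one, and within fibronectin the anti-ITGAV libraries all lay below the IgG ones. The log2 change of fibronectin over uncoated was -2.13 ± 0.20 (SE) under anti-ITGAV and -1.30 ± 0.19 under IgG, that is 4.37-fold and 2.46-fold lower.

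Gprc5c, the retinoic acid-inducible orphan receptor, had the highest counts of the set. Gprc5c had 6.34, 8.57, 4.71 and 5.27 CPM in the 4 fibronectin_antiITGAV libraries and 5.53, 9.84, 8.57 and 6.65 CPM in the 4 fibronectin_IgG libraries. The uncoated libraries held 16.6, 18.4, 22.7 and 17.2 CPM in uncoated_antiITGAV and 20.5, 18.6, 15.0 and 18.2 CPM in uncoated_IgG. The highest fibronectin library stood at 9.84 CPM and the lowest uncoated one at 15.0 CPM, so the coatings did not overlap. This gave a log2 change of -1.59 ± 0.20 under anti-ITGAV and -1.24 ± 0.20 under IgG.

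Gpr162, an orphan receptor of the rhodopsin class, followed the same order of coatings at a lower level. Gpr162 had 1.58, 2.48, 0.915 and 2.19 CPM in the 4 fibronectin_antiITGAV libraries and 2.66, 2.24, 2.91 and 1.77 CPM in the 4 fibronectin_IgG libraries. Without the coating it had 5.21, 5.66, 6.71 and 6.61 CPM in uncoated_antiITGAV and 7.30, 5.70, 4.17 and 3.24 CPM in uncoated_IgG. The coatings did not overlap, with the highest fibronectin library at 2.91 CPM and the lowest uncoated one at 3.24 CPM, but the uncoated_IgG libraries were widely spread. On the log2 scale fibronectin differed from uncoated by -1.76 ± 0.29 under anti-ITGAV and by -1.09 ± 0.28 under IgG. Without fibronectin_antiITGAV 3 the first of these was -1.54.

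Gpr34, the lysophosphatidylserine receptor, was less uniform. Gpr34 had 9.55, 5.08, 13.5 and 6.66 CPM in the 4 fibronectin_antiITGAV libraries and 7.65, 6.20, 6.69 and 8.60 CPM in the 4 fibronectin_IgG libraries. Its uncoated values were 10.6, 13.7, 14.4 and 20.1 CPM in uncoated_antiITGAV and 18.4, 19.7, 17.7 and 12.0 CPM in uncoated_IgG. Under IgG every fibronectin library lay below every uncoated one, whereas under anti-ITGAV the library fibronectin_antiITGAV 3, at 13.5 CPM, lay above uncoated_antiITGAV 1, at 10.6 CPM. This gave a log2 change of -0.76 ± 0.26 under anti-ITGAV and -1.22 ± 0.26 under IgG, and without fibronectin_antiITGAV 3 the first of these was -1.05.

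Gria3, the glutamate receptor subunit, had the smallest coating difference of the 9 under anti-ITGAV. Gria3 had 2.10, 1.12, 1.88 and 1.11 CPM in the 4 fibronectin_antiITGAV libraries and 1.82, 0.865, 1.30 and 1.28 CPM in the 4 fibronectin_IgG libraries. On normal dishes it had 1.34, 1.98, 2.00 and 1.43 CPM in uncoated_antiITGAV and 3.21, 3.00, 3.42 and 1.88 CPM in uncoated_IgG. Under IgG the groups did not overlap (highest 1.82 CPM on fibronectin, lowest 1.88 CPM on uncoated dishes), and under anti-ITGAV they overlapped almost fully. The log2 change was -0.11 ± 0.28 under anti-ITGAV, with a 95% interval of -0.67 to 0.44, and -1.12 ± 0.28 under IgG. The libraries uncoated_IgG 1, 2 and 3 stood above all the others.

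Nrg2, the ERBB ligand (chr18:36017707-36197380, minus strand), was the scarcest gene of the set by CPM, which does not account for transcript length. Nrg2 had 0.415, 0.382, 0.296 and 0.347 CPM in the 4 fibronectin_antiITGAV libraries and 0.876, 1.01, 0.888 and 0.701 CPM in the 4 fibronectin_IgG libraries. The values without fibronectin were 0.834, 1.48, 1.28 and 1.84 CPM in uncoated_antiITGAV and 1.40, 2.13, 1.02 and 2.50 CPM in uncoated_IgG. Under anti-ITGAV the highest fibronectin library stood at 0.415 CPM and the lowest uncoated one at 0.834 CPM, about the level of the fibronectin_IgG libraries. On the log2 scale fibronectin differed from uncoated by -1.90 ± 0.33 under anti-ITGAV and by -1.02 ± 0.30 under IgG, the widest standard errors of the set.

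Samd4, the RNA-binding repressor, was separated by coating under both antibodies. Samd4 had 3.15, 2.95, 2.42 and 2.22 CPM in the 4 fibronectin_antiITGAV libraries and 3.10, 2.62, 4.27 and 2.77 CPM in the 4 fibronectin_IgG libraries. On uncoated dishes it had 6.37, 7.61, 7.40 and 8.58 CPM in uncoated_antiITGAV and 9.41, 7.99, 6.18 and 6.72 CPM in uncoated_IgG. The highest fibronectin library stood at 4.27 CPM and the lowest uncoated one at 6.18 CPM. This gave a log2 change of -1.48 ± 0.19 under anti-ITGAV and -1.24 ± 0.19 under IgG.

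Pik3ip1, the PI3K inhibitor, was tightly grouped on fibronectin. Pik3ip1 had 1.36, 1.61, 1.16 and 1.25 CPM in the 4 fibronectin_antiITGAV libraries and 1.21, 1.37, 1.30 and 1.22 CPM in the 4 fibronectin_IgG libraries. The uncoated libraries had 3.19, 2.98, 3.84 and 2.66 CPM in uncoated_antiITGAV and 4.60, 2.10, 2.40 and 2.23 CPM in uncoated_IgG. All 8 fibronectin libraries lay at 1.16 to 1.61 CPM and all uncoated ones at 2.10 CPM or more, with uncoated_IgG 1 far above the other 3 of its group. On the log2 scale fibronectin differed from uncoated by -1.24 ± 0.24 under anti-ITGAV and by -1.14 ± 0.24 under IgG, and the second was -0.81 without uncoated_IgG 1.

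Ctla2a, the cathepsin inhibitor, had near-equal coating differences under both antibodies. Ctla2a had 3.24, 2.38, 2.48 and 2.71 CPM in the 4 fibronectin_antiITGAV libraries and 1.89, 1.85, 2.66 and 3.20 CPM in the 4 fibronectin_IgG libraries. Its values on normal dishes were 5.51, 6.44, 7.20 and 6.11 CPM in uncoated_antiITGAV and 4.84, 5.31, 6.11 and 5.81 CPM in uncoated_IgG. The highest fibronectin library stood at 3.24 CPM and the lowest uncoated one at 4.84 CPM. This gave a log2 change of -1.23 ± 0.18 under anti-ITGAV and -1.20 ± 0.18 under IgG.

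Over the whole set, the log2 changes of fibronectin over uncoated ran from -2.13 to -0.11 under anti-ITGAV, with a median of -1.48, and from -1.30 to -1.02 under IgG, with a median of -1.20. The medians of all genes tested were 0.0078 and 0.0020. Under anti-ITGAV the groups did not overlap for 7 of the 9 (all but Gpr34 and Gria3), where 7.53% of all genes tested were lower with no overlap. Under IgG they did not overlap for 9 of 9, where the share of all genes was 5.26%. EdgeR's quasi-likelihood test called 7 of the 9 lower under anti-ITGAV and 8 of the 9 under IgG (all but Nrg2), where it called 2.83% and 1.42% of all genes lower. Of the 8 under IgG, Gpr162 was no longer called without any 1 of the 4 fibronectin_IgG libraries, uncoated_antiITGAV 2 or 3, or uncoated_IgG 1, 2 or 3, nor with the replicate number as a block. Gria3 was not called there without fibronectin_IgG 2, 3 or 4 or uncoated_IgG 1, 2 or 3, Gpr34 without fibronectin_IgG 3, and Pik3ip1 without uncoated_IgG 1. Nrg2 was called under IgG without fibronectin_antiITGAV 3 or uncoated_IgG 3, and Gpr34 was called under anti-ITGAV without fibronectin_antiITGAV 3. These counts come from the contrasts that chose the genes and carry no weight as evidence. In bulk RNA, fewer cells of a type and less RNA per cell cannot be told apart.

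**Figure D2:**
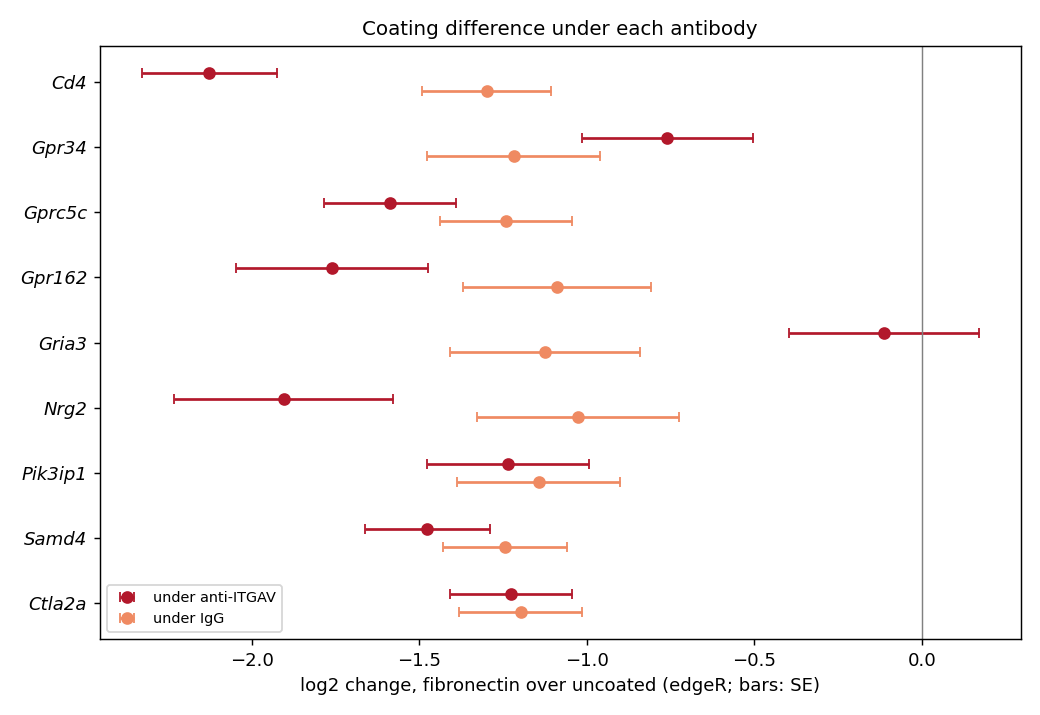
Log2 change of fibronectin over uncoated dishes for each gene (horizontal axis; points are edgeR estimates, bars the SE, 8 libraries per contrast), under anti-ITGAV (dark red) and under IgG (orange). Under IgG the 9 points lie between -1.30 and -1.02, and under anti-ITGAV they spread from -2.13 for Cd4 to -0.11 for Gria3.

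The antibody comparisons were not used to choose the genes, but they share all 16 libraries with the contrasts that were. A low fibronectin_antiITGAV group or a high uncoated_IgG group could bring a gene into the set and also shift its antibody difference. The antibody values of the 9 are therefore not free of that choice and are a description. On fibronectin, none of the 9 passed edgeR's test, while 2 of the 15469 genes tested did (0.0129%), the neutrophil granule genes Ltf and Lcn2. Cd4 and Nrg2 had the largest differences. Cd4 averaged 0.883 ± 0.167 CPM under anti-ITGAV, against 1.56 ± 0.284 CPM under IgG (SD, n = 4 each). That is -0.81 ± 0.21 on the log2 scale (SE; adjusted p of 0.721 by edgeR), and it was lower with no overlap, in 4 of 4 libraries. Nrg2 averaged 0.360 ± 0.0510 CPM under anti-ITGAV, against 0.870 ± 0.129 CPM under IgG, a difference of -1.26 ± 0.33 on the log2 scale (adjusted p of 0.721 by edgeR), also with no overlap. Such a pattern, lower with no overlap, was shown by 1.37% of all genes tested. Over the alternatives other than leaving out a library, the adjusted p ran from 0.212 to 0.864 for Cd4 and from 0.235 to 0.918 for Nrg2, so neither passed in any of them. At an unadjusted p under 0.05, 2 of the 9 and 4.65% of all genes were counted.

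For the other 7 genes on fibronectin the log2 changes of anti-ITGAV over IgG lay between -0.42 (Gpr162) and 0.26 (Gpr34), each within 2 SE of 0. Without fibronectin_antiITGAV 3 that of Gpr34 was -0.04 and that of Gpr162 was -0.20. With all libraries in, the 95% intervals of the 7 genes reached from -0.99 at the lowest, for Gpr162, to 0.81 at the highest, for Gria3. Differences up to that size thus lie within the intervals.

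On uncoated dishes none of the 9 passed, and 0.0129% of all genes did. Gria3 differed most, at 1.69 ± 0.351 CPM under anti-ITGAV, against 2.88 ± 0.686 CPM under IgG (SD, n = 4 each), or -0.77 ± 0.28 on the log2 scale (SE; adjusted p of 0.988 by edgeR, 0.690 to 0.991 over the alternatives other than leaving out a library). The groups overlapped, since uncoated_antiITGAV 2 and 3 lay above the lowest IgG library. The other 8 ranged from -0.38 (Nrg2) to 0.25 (Gpr162), and Cd4, Samd4 and Gprc5c were within 0.05 of 0 on the log2 scale. At an unadjusted p under 0.05, 1 of the 9 and 3.04% of all genes were counted.

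Averaged over both coatings, Nrg2 was again the gene with the largest difference, at -0.82 ± 0.22 (edgeR adjusted p = 0.497), followed by Cd4 at -0.40 ± 0.14 (adjusted p = 1.0), and none of the 9 passed where 0.0711% of all genes did. The interaction, which asks whether the antibody difference differs between coatings, was passed by none of the 9 and by 0% of all genes in edgeR (1 gene in DESeq2). The interaction is also the difference of the 2 coating contrasts that chose the genes. Its values, intervals and counts for the 9 depend on that choice and are a description. Its largest values were 1.01 ± 0.40 for Gria3, -0.88 ± 0.44 for Nrg2 and -0.83 ± 0.28 for Cd4 (edgeR adjusted p = 0.646 for each, 0.597 to 0.954 over the alternatives other than leaving out a library). The 95% interval of Gria3 was 0.23 to 1.79 and that of Cd4 -1.37 to -0.29, before any adjustment. The different coating changes of Gria3 and Cd4 under the 2 antibodies were thus not shown to differ. At an unadjusted p under 0.05, 2 of the 9 and 3.97% of all genes were counted.

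**Figure D3:**
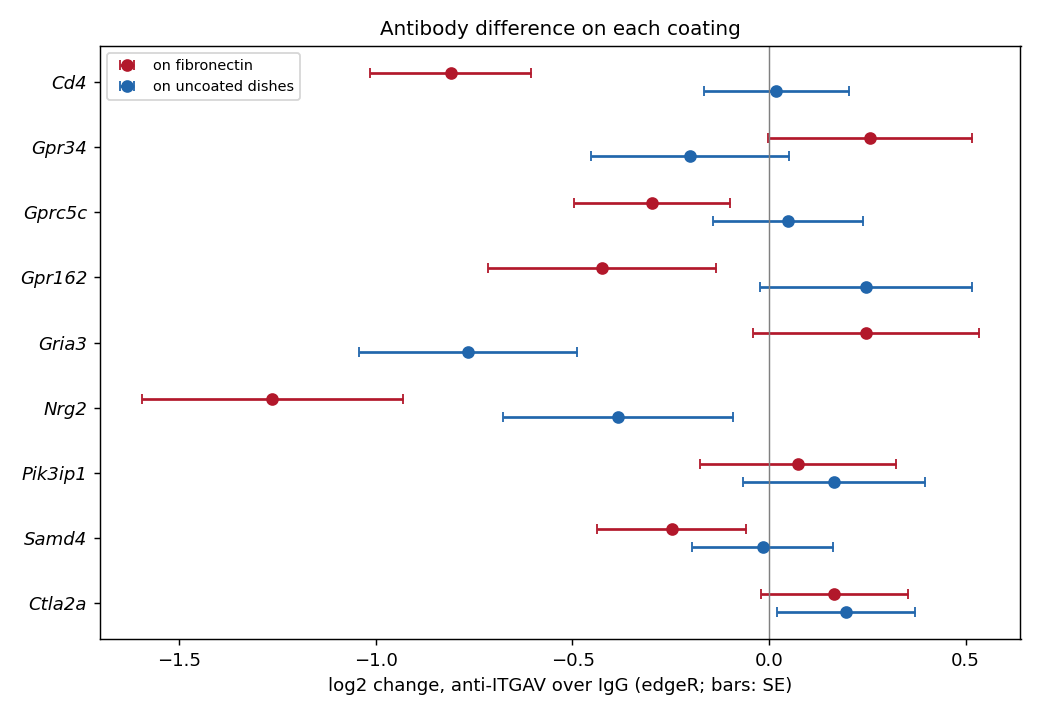
Log2 change of anti-ITGAV over IgG for each gene (horizontal axis; points are edgeR estimates, bars the SE, 8 libraries per contrast), on fibronectin (red) and on uncoated dishes (blue). On fibronectin Nrg2 and Cd4 lie farthest from 0, at -1.26 and -0.81, on uncoated dishes Gria3 does, at -0.77, and no point passed the test.

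Transcript GC content moved with the values of fibronectin_antiITGAV 3. Gpr34 and Gria3, whose longest transcripts have 37.1% and 39.8% GC, stood 0.97 and 0.43 above the mean of the other 3 libraries of that group on the log2 CPM scale, and Gpr162, with 58.7% GC, stood 1.11 below it. Gprc5c (54.1% GC) stood 0.48 below it. Nrg2 has the highest GC content, 63.4%, and stood 0.31 below. Over the 16 libraries, deviations from the group mean correlated with the library's GC trend at r = -0.81 for Gpr34, -0.60 for Gria3 and 0.64 for Gprc5c. The other 6 lay between -0.11 (Ctla2a) and 0.25 (Pik3ip1), with Nrg2 and Gpr162, the genes highest in GC, at 0.18 and 0.24. This is a description over 16 points in which both measures come from the same library.

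With a per-library GC offset, added after the data were seen, the coating change under anti-ITGAV was -1.23 for Gpr34, against -0.76 without it, and -0.49 for Gria3, against -0.11. That of Nrg2 was -1.54, against -1.90, and that of Cd4 was -2.05, against -2.13. Under the offset Gpr34 differed by -1.23 under anti-ITGAV and -1.09 under IgG, so its changes under the 2 antibodies lay closer together. The interaction value of Gria3 was 0.51 under the offset, against 1.01.

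**Figure D4:**
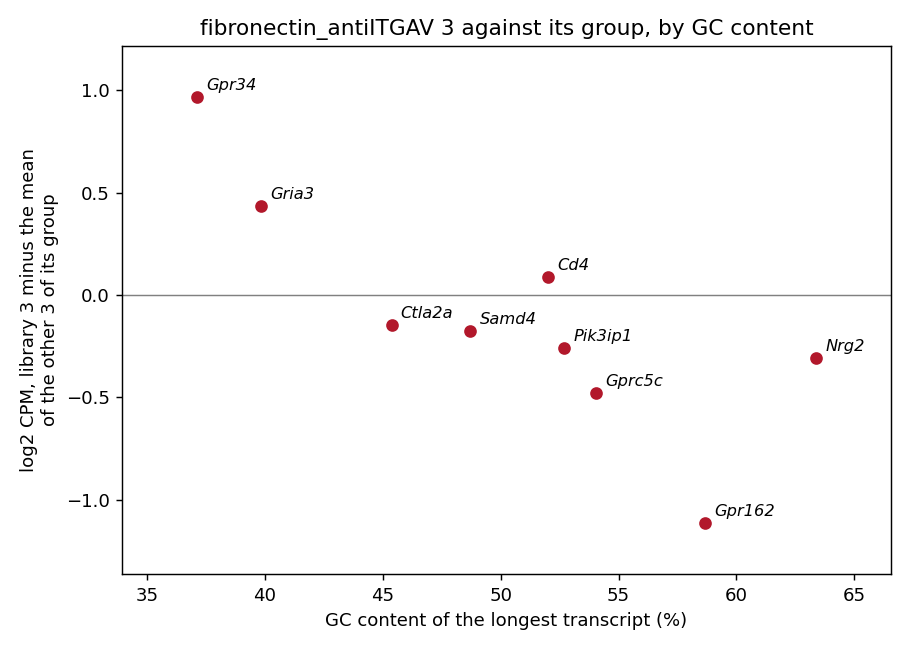
Log2 CPM of each of the 9 genes in the library fibronectin_antiITGAV 3 minus the mean of the other 3 libraries of its group (vertical axis), against the GC content of the gene's longest transcript in percent (horizontal axis; 1 point per gene). Gpr34 and Gria3, at 37.1% and 39.8% GC, lie at 0.97 and 0.43, and Gpr162, at 58.7%, lies at -1.11.

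Across the 16 libraries the genes varied together, with the coating difference that chose them included. Pearson's r of log2 CPM lay between 0.38 and 0.95 over the 36 pairs, with a median of 0.79. Samd4 was closest to the mean of the 9 (r = 0.98) and Gria3 farthest from it (r = 0.65). Within groups, after the group mean was removed, the median r was 0.13 and 22 of 36 pairs were above 0. The highest was 0.64, for Gpr34 and Gria3, which are both low in GC, and the lowest was -0.49, for Cd4 and Ctla2a. The points of a pair share their library, its depth and its scaling.

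Of the genes outside the set, the 5 whose log2 CPM followed its mean most closely over the 16 libraries were Entpd1 (r = 0.97), Ypel2 (0.97), Rell1 (0.96), Serinc5 (0.96) and Fcgr2b (0.96). Entpd1 encodes the ectonucleotidase CD39, and Fcgr2b the inhibitory IgG receptor. Entpd1 averaged 95.3, 91.1, 172.3 and 167.3 CPM in fibronectin_antiITGAV, fibronectin_IgG, uncoated_antiITGAV and uncoated_IgG, and Fcgr2b averaged 189.6, 182.1, 278.4 and 280.7 CPM. Their coating changes, -0.85 and -0.88 for Entpd1 and -0.55 and -0.62 for Fcgr2b under anti-ITGAV and IgG, were smaller than the medians of the 9. Gene by gene, the closest follower was Il6ra for Cd4 (r = 0.95), Ypel2 for Samd4 (0.97), Bmf for Gprc5c (0.98), Ms4a6b for Gpr34 (0.93) and Cyp27a1 for Gpr162 (0.96). It was Frat2 for Nrg2 (0.89), Arhgap17 for Pik3ip1 (0.94) and Rell1 for Ctla2a (0.94). These genes were picked by likeness over the same libraries, so their coating values are a description.

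Cd4 and Gpr162 lie 708 bases apart on the minus strand of chromosome 6, and both were lower on fibronectin. P3h3, which encodes a collagen prolyl hydroxylase family member and lies 691 bases beyond Gpr162, averaged 3.38 ± 1.18, 2.76 ± 0.44, 4.95 ± 0.33 and 5.20 ± 1.04 CPM in fibronectin_antiITGAV, fibronectin_IgG, uncoated_antiITGAV and uncoated_IgG (SD, n = 4 each). It was lower on fibronectin under IgG, at -0.91 ± 0.235 (SE, edgeR adjusted p = 0.0379), a call that was lost when any of 9 of the 16 libraries was left out in turn (adjusted p up to 0.152), and did not pass under anti-ITGAV, at -0.55 ± 0.23 (adjusted p = 0.177). On the other side of Cd4, Ptms, which encodes the small nuclear protein parathymosin, was lower under anti-ITGAV (-0.68 ± 0.18, adjusted p = 0.0368, lost on leaving out 7 of the 16 libraries) and not under IgG (-0.35 ± 0.18, adjusted p = 0.396). The other tested genes within 100 kb of Gpr162 passed in neither contrast.

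**Figure D5:**
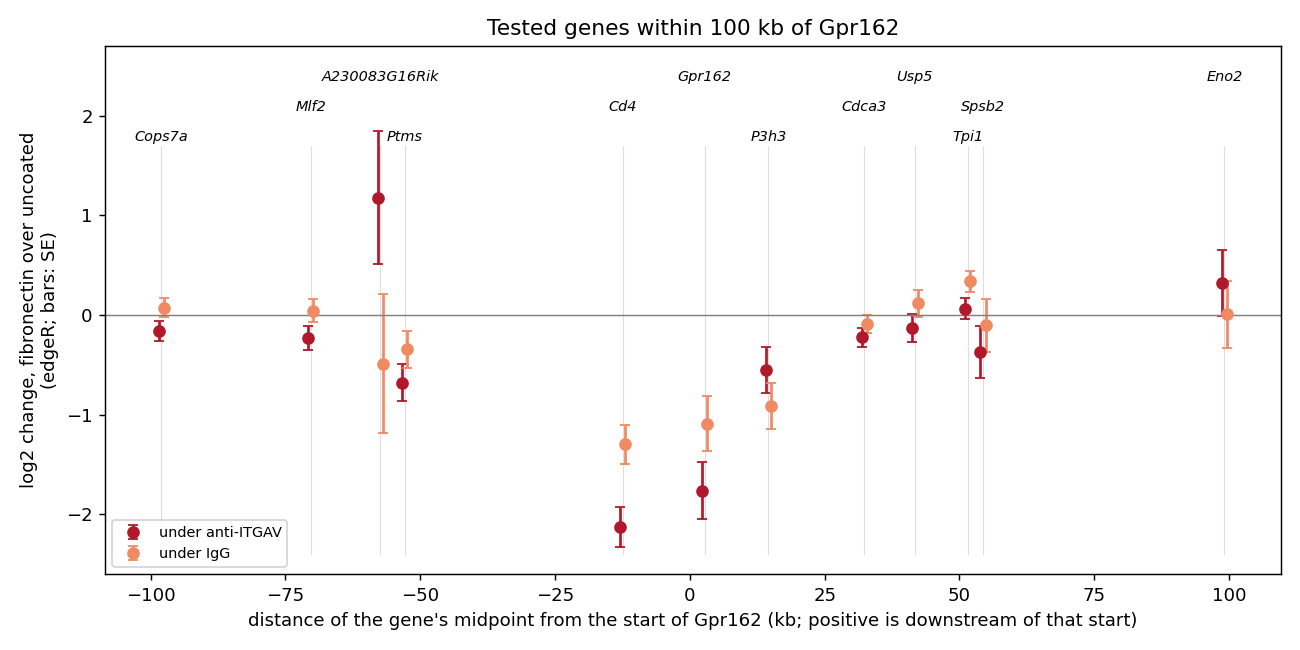
Log2 change of fibronectin over uncoated dishes (vertical axis; points are edgeR estimates, bars the SE) for the tested genes within 100 kb of Gpr162, placed by the distance of the gene's midpoint from the start of Gpr162 in kb (horizontal axis), under anti-ITGAV (dark red) and IgG (orange). Cd4 lies at -2.13 and -1.30, Gpr162 at -1.76 and -1.09 and P3h3 at -0.55 and -0.91, and Ptms, on the other side of Cd4, at -0.68 and -0.35.

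Around all 9 genes, 37 other tested genes lay within 100 kb. Under anti-ITGAV 2 of them were called lower and 0 higher, where 2.83% and 2.84% of all genes tested were, with a median log2 change of -0.01. Under IgG 2 were called lower and 1 higher, where 1.42% and 2.37% were, with a median of -0.06. Cd300a, an inhibitory receptor gene 17423 bases from Gprc5c, was lower under both (-0.46 ± 0.09 under anti-ITGAV, edgeR adjusted p = 0.00676; -0.34 ± 0.09 under IgG, adjusted p = 0.0449, the second lost on leaving out any of 12 of the 16 libraries). Gch1, the first enzyme of tetrahydrobiopterin synthesis, 48079 bases from Samd4, was higher under IgG (0.54 ± 0.11, adjusted p = 0.00953, and 0.0544 without uncoated_IgG 3).

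Cask, which overlaps Gpr34, averaged 29.9, 27.1, 29.6 and 30.0 CPM in fibronectin_antiITGAV, fibronectin_IgG, uncoated_antiITGAV and uncoated_IgG, with log2 changes of 0.02 ± 0.14 under anti-ITGAV and -0.14 ± 0.14 under IgG (edgeR adjusted p = 0.960 and 0.741). Limk2, 1284 bases beyond Pik3ip1, differed by -0.22 ± 0.09 and 0.00 ± 0.09 (adjusted p = 0.176 and 0.996). Psd2, 2991 bases from Nrg2, was at 0.26 ± 0.16, 0.23 ± 0.09, 0.24 ± 0.08 and 0.47 ± 0.22 CPM in the same 4 groups and passed in neither contrast (adjusted p = 0.942 and 0.386). Pura, 83716 bases to the other side of Nrg2, passed in neither (0.40 ± 0.16 and 0.09 ± 0.16, adjusted p = 0.156 and 0.876). Nor did the scarce genes Btbd17 beside Gprc5c, Gm11944 beside Pik3ip1 and Gm34934 beside Samd4. Gpr82, the receptor gene 20504 bases from Gpr34, differed by -1.24 ± 0.60 and -0.56 ± 0.58 at under 1 CPM (adjusted p = 0.234 and 0.751). No tested gene lay within 100 kb of Gria3.

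Ctla2b, the paralogue 36707 bases from Ctla2a, did not follow it. Ctla2b averaged 1.76 ± 0.37, 2.02 ± 0.29, 1.17 ± 0.30 and 2.00 ± 0.13 CPM in fibronectin_antiITGAV, fibronectin_IgG, uncoated_antiITGAV and uncoated_IgG (SD, n = 4 each). Its log2 change of fibronectin over uncoated was 0.59 ± 0.22 under anti-ITGAV (SE, edgeR adjusted p = 0.137) and 0.02 ± 0.22 under IgG (adjusted p = 0.989), against -1.23 and -1.20 for Ctla2a. Its antibody difference on uncoated dishes, -0.77 ± 0.22, did not pass (edgeR adjusted p = 0.988). The difference between the paralogues was not tested. Of the 2513 distinct stretches of 100 bases in Ctla2a transcripts, 28 (1.11%) also occur unchanged in Ctla2b transcripts. Stretches shared with mismatches were not counted, so this does not show how often reads matched both. Gm49391 and Gm49393, annotated over both on the same strand, had 0 counts in all 16 libraries, and the counting rule for reads shared by overlapping genes is not stated in the sources used here.

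The lists that follow give other genes of each pathway, beside the shares of all genes tested that were called (under anti-ITGAV 2.83% lower and 2.84% higher, under IgG 1.42% lower and 2.37% higher). No gene of any of the 9 lists passed an antibody comparison or the interaction. Of 18 genes of CD4 and T cell receptor signalling, 5 were tested. Il16, a cytokine that binds CD4, fell to 20.1 ± 2.87 CPM in fibronectin_antiITGAV, against 34.5 ± 2.52 CPM in uncoated_antiITGAV (log2 change -0.78 ± 0.13, edgeR adjusted p = 0.00236). Under IgG it stood at 21.8 ± 4.01 CPM on fibronectin and 32.4 ± 1.499 CPM on uncoated dishes (-0.57 ± 0.13, adjusted p = 0.0187), a call lost without any of 4 libraries (up to 0.068). Cd28, a costimulatory receptor gene of T cells, was lower under IgG (-0.99 ± 0.23, adjusted p = 0.0251), a call lost without any of 5 libraries (up to 0.092), and did not pass under anti-ITGAV (-0.47 ± 0.23, adjusted p = 0.248). The median over the 5 was -0.47 under anti-ITGAV and -0.45 under IgG.

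Of 18 receptors and partners related to GPR34, 15 were tested, with 2 lower and 1 higher under anti-ITGAV and 2 lower under IgG. Ptafr, the receptor for platelet-activating factor, fell to 190.0 ± 23.5 CPM in fibronectin_antiITGAV, against 291.3 ± 10.2 CPM in uncoated_antiITGAV (-0.62 ± 0.10, edgeR adjusted p = 0.0023), and P2ry10b rose to 20.6 ± 8.36 CPM, against 7.5 ± 2.01 CPM (1.46 ± 0.29, adjusted p = 0.0071). P2ry14, the UDP-glucose receptor, was lower under both (adjusted p = 0.0395 and 0.0497), as was Ptafr under IgG (-0.38 ± 0.10, adjusted p = 0.0471), and these 3 calls were each lost on leaving out 12 or 13 of the 16 libraries in turn. P2ry12 stood at 29.05 ± 9.74, 26.0 ± 6.22, 26.7 ± 7.03 and 31.4 ± 4.32 CPM and passed in neither. The medians were -0.08 under anti-ITGAV and -0.26 under IgG.

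Of 22 other orphan and GPRC5 receptors, 20 were tested, with 2 lower and 1 higher under anti-ITGAV and 2 lower and 3 higher under IgG. Gpr84, a receptor for medium-chain fatty acids, rose to 4.59 ± 1.16 CPM in fibronectin_antiITGAV, against 1.82 ± 0.38 CPM in uncoated_antiITGAV (1.33 ± 0.24, edgeR adjusted p = 0.00361), and to 5.435 ± 0.68 CPM in fibronectin_IgG, against 1.88 ± 0.61 CPM in uncoated_IgG (1.52 ± 0.24, adjusted p = 0.00153). Gprc5b, of the same family as Gprc5c, was higher under IgG, at 4.30 ± 0.21 CPM on fibronectin and 2.14 ± 0.33 CPM on uncoated dishes (1.005 ± 0.18, adjusted p = 0.00407), the opposite direction to Gprc5c. Gprc5a was higher too under IgG, at under 1 CPM, with a call lost on leaving out 13 of the 16 libraries (adjusted p = 0.047, up to 0.176), and Gpr155, a lysosomal membrane protein gene, was lower there (-0.78 ± 0.20, adjusted p = 0.034, lost without any of 6). Gpr146 and Gpr157 were lower under anti-ITGAV (-0.44 ± 0.08 and -0.50 ± 0.11, adjusted p = 0.00568 and 0.0124). The medians were -0.14 and -0.08. Without fibronectin_antiITGAV 3 the list had 3 lower and 1 higher under anti-ITGAV, and 4 lower and 4 higher under IgG, where 2.91% of all genes were lower and 5.5% higher.

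Of 24 genes of neuregulins and ERBB signalling, 16 were tested, with 2 lower under anti-ITGAV and 2 lower and 1 higher under IgG. Gab1, the docking protein of receptor tyrosine kinases, fell to 29.8 ± 1.79 CPM in fibronectin_antiITGAV, against 49.95 ± 2.21 CPM in uncoated_antiITGAV (-0.74 ± 0.09, edgeR adjusted p = 0.00012), and to 30.5 ± 2.66 CPM in fibronectin_IgG, against 46.8 ± 2.10 CPM in uncoated_IgG (-0.62 ± 0.09, adjusted p = 0.000541). Adam19, a metalloprotease that sheds neuregulins, was lower under both (-0.96 and -0.99, adjusted p = 0.0365 and 0.0424), and Lrig1, which restrains ERBB receptors, was higher under IgG (adjusted p = 0.0399), calls lost without any of 5, 11 and 12 of the 16 libraries. The receptor gene Erbb3 stood at 9.99 ± 1.34, 11.7 ± 0.82, 10.6 ± 1.02 and 10.9 ± 0.30 CPM in fibronectin_antiITGAV, fibronectin_IgG, uncoated_antiITGAV and uncoated_IgG and passed in neither, and Erbb2 and Erbb4 were not tested for low counts. The medians were 0.20 and 0.03.

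All 29 genes of PI3K and AKT signalling were tested, with 2 lower and 2 higher under anti-ITGAV and 1 higher under IgG. Pik3cb, the p110β catalytic subunit, rose to 57.0 ± 3.00 CPM in fibronectin_antiITGAV, against 36.2 ± 1.64 CPM in uncoated_antiITGAV (0.66 ± 0.09, edgeR adjusted p = 0.000454), and to 50.05 ± 5.79 CPM in fibronectin_IgG, against 32.7 ± 0.95 CPM in uncoated_IgG (0.62 ± 0.09, adjusted p = 0.000776). The phosphatase genes Inpp4a and Phlpp1 were lower and Inpp4b higher under anti-ITGAV (adjusted p = 0.0308, 0.0415 and 0.0397), calls lost without any of 5, 11 and 11 of the 16 libraries. The medians were -0.11 and 0.03.

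All 26 genes of the list of FOXO factors, which AKT signalling restrains, and of FOXO targets were tested. Under anti-ITGAV 2 were lower and 1 higher, and under IgG 6 were lower and 2 higher. Bcl6, a transcriptional repressor, was higher under both, at 50.7 ± 1.74 CPM in fibronectin_antiITGAV and 36.35 ± 1.65 CPM in uncoated_antiITGAV (0.48 ± 0.08, edgeR adjusted p = 0.00252) and at 46.7 ± 1.33 CPM in fibronectin_IgG and 27.3 ± 2.47 CPM in uncoated_IgG (0.77 ± 0.08, adjusted p = 4.69e-05). Bcl2l11, which encodes the death-promoting protein BIM, was lower under both, at -0.34 ± 0.08 (adjusted p = 0.0195, lost without any of 5 libraries, up to 0.0693) and -0.42 ± 0.08 (adjusted p = 0.0067). Foxo3 was also lower under both, at -0.43 ± 0.08 (adjusted p = 0.00412) and -0.30 ± 0.08 (adjusted p = 0.0383, lost without any of 10). Sesn1 was lower (adjusted p = 0.00905) and Klf2 higher (0.72 ± 0.12, adjusted p = 0.00223) under IgG, and Ccng2, Insr and Cdkn1b were lower there with calls lost without any of 5, 8 and 11 of the 16 libraries. The medians were -0.18 and -0.12. Without fibronectin_antiITGAV 3, 6 were lower and 2 higher under anti-ITGAV, where 3.13% and 3.04% of all genes were, and 8 lower and 2 higher under IgG. With the GC offset, 11 were lower and 4 higher under anti-ITGAV, where 5.59% and 6.97% of all genes were, and 8 lower and 2 higher under IgG, where 5.02% and 6.05% were. At an unadjusted p under 0.05, edgeR counted 15 of the 26 under anti-ITGAV and 14 under IgG, where 22.1% and 15.2% of all genes were counted.

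Of 19 genes of CTLA2 proteins and cysteine cathepsins, 16 were tested, with 2 lower under anti-ITGAV and 0 changed under IgG. Ctsf, a lysosomal cysteine protease, fell to 7.54 ± 1.49 CPM in fibronectin_antiITGAV, against 12.2 ± 0.35 CPM in uncoated_antiITGAV (-0.69 ± 0.13, edgeR adjusted p = 0.0054), and the legumain gene Lgmn was lower there too (-0.38 ± 0.09, adjusted p = 0.0174, lost without any of 5 libraries). Under IgG no gene passed by edgeR, and 4 had an unadjusted p under 0.05, where 15.2% of all genes did. With the GC offset 4 were lower under IgG, where 5.02% of all genes were. The medians were -0.08 and -0.04. Of 40 genes of glutamate receptors and their partners, 10 were tested, 1 was lower under anti-ITGAV and 0 under IgG (1 at an unadjusted p under 0.05 in edgeR, where 15.2% of all genes were). The lower 1 was Glul, glutamine synthetase (-0.40 ± 0.09, adjusted p = 0.0137, and 0.0537 without uncoated_antiITGAV 3). Gria1, Gria2 and Gria4, the other AMPA receptor subunits, were not tested for low counts. The medians were -0.13 and -0.05.

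All 26 genes of the Smaug and CCR4-NOT list were tested, with 2 lower and 1 higher under anti-ITGAV and 1 higher under IgG. Nanos1, a translational repressor, rose to 80.65 ± 19.8 CPM in fibronectin_antiITGAV, against 38.2 ± 4.41 CPM in uncoated_antiITGAV (1.08 ± 0.15, edgeR adjusted p = 0.000688), and to 69.0 ± 2.88 CPM in fibronectin_IgG, against 33.9 ± 5.87 CPM in uncoated_IgG (1.02 ± 0.15, adjusted p = 0.00105). Samd4b, the paralogue of Samd4, stood at 65.15 ± 10.7, 71.4 ± 5.28, 74.5 ± 4.29 and 64.2 ± 3.66 CPM in fibronectin_antiITGAV, fibronectin_IgG, uncoated_antiITGAV and uncoated_IgG and passed in neither (adjusted p = 0.302 and 0.586). Btg2 and Zfp36 were lower under anti-ITGAV (adjusted p = 0.0146 and 0.029), calls lost without any of 2 and 4 of the 16 libraries. The medians were 0.05 and -0.09.

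Some of these counts moved by over 1.5 times without fibronectin_antiITGAV 3. Under anti-ITGAV the neuregulin list then had 1 lower, and the PI3K list 1 lower and 1 higher. Of all genes, 3.13% were lower and 3.04% higher there. Under IgG the PI3K list had 1 lower and 3 higher, the cathepsin list 1 lower and the Smaug list 3 lower and 3 higher, where 2.91% of all genes were lower and 5.5% higher. With the GC offset, 5.59% of all genes were called lower and 6.97% higher under anti-ITGAV, and 5.02% and 6.05% under IgG. This offset moved others of these counts. Under anti-ITGAV it gave 5 lower and 1 higher for the list related to GPR34, 5 lower and 3 higher for the orphan receptors, 5 lower and 3 higher for PI3K and 4 lower and 1 higher for the cathepsins. The CD4 list then had 2 lower, the neuregulin list 2 lower and 1 higher and the glutamate list 1 in each direction. Under IgG it gave 3 lower and 4 higher for PI3K, 4 lower and 2 higher for Smaug, 4 in each direction for the orphan receptors, and 1 in each direction for the glutamate list and the list related to GPR34.

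Markers of some other blood and stromal cells were also lower on fibronectin, and their part in the values of the 9 genes was not tested. The 11 mast cell and basophil markers, 9 of them tested, summed to 12.7 to 17.1 CPM in fibronectin_antiITGAV, 18.2 to 22.2 in fibronectin_IgG, 25.6 to 32.3 in uncoated_antiITGAV and 33.3 to 40.7 in uncoated_IgG, with 2 lower under anti-ITGAV and 3 under IgG. The 7 B lymphocyte markers (6 tested) summed to 30.0 to 36.8, 31.1 to 44.9, 69.4 to 79.7 and 61.0 to 77.7 CPM in the same groups, mostly Ighm, with 2 and 1 lower. The 8 fibroblast markers (4 tested) summed to 5.16 to 8.35, 7.62 to 8.98, 10.8 to 13.6 and 12.4 to 15.3 CPM, with 1 and 2 lower and Lum at 0. The 6 megakaryocyte and platelet markers (4 tested) summed to 450.0 to 481.3, 394.2 to 503.2, 607.7 to 701.1 and 546.1 to 642.3 CPM, nearly all Pf4, which was lower under both, with Gp1bb at 0. The 12 neutrophil markers summed to 241.4 to 406.8, 359.8 to 446.6, 357.8 to 409.2 and 460.7 to 498.0 CPM, with 6 and 0 lower (8 and 3 at an unadjusted p under 0.05), and 8 lower under anti-ITGAV without fibronectin_antiITGAV 3. EdgeR called 2.83% of all genes tested lower and 2.84% higher under anti-ITGAV, and 1.42% and 2.37% under IgG. Without fibronectin_antiITGAV 3 it called 3.13% lower under anti-ITGAV. Of all genes tested, 22.1% under anti-ITGAV and 15.2% under IgG had an unadjusted p under 0.05 in edgeR.

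For Cd4, which T cells also carry, the defining T cell markers were near 0. Of the 11 T and NK lymphocyte markers, 2 were tested, Cd3e, Zap70 and Ncr1 had at most 3 counts in any library, and the sums (36.9 to 52.0, 31.2 to 45.2, 39.2 to 91.0 and 48.0 to 87.1 CPM) were nearly all Cd28. For Gpr34, a microglial gene, the 11 markers of tissue-resident macrophages and microglia (9 tested) had Sall1 and Timd4 at 0 in all libraries and summed to 1108 to 1831, 1547 to 1906, 1733 to 1856 and 1567 to 1760 CPM, mostly Siglec1, with Cx3cr1 higher on fibronectin under both antibodies. The 10 dendritic cell markers had 1 higher under either antibody (Itgax) and 0 lower, the 7 endothelial markers likewise (Kdr), and the 6 eosinophil markers had 1 lower under anti-ITGAV (Prg2) and 1 higher under IgG (Siglecf). Of the 14 macrophage markers, Mertk, which clears dying cells, was lower under both antibodies and the other 13 passed in neither. Without fibronectin_antiITGAV 3, the endothelial list had 2 higher under anti-ITGAV and 3 under IgG, and the tissue-resident list had 2 higher under IgG. The dendritic list then had 1 lower under anti-ITGAV, the eosinophil list 1 lower under IgG and the macrophage list 1 higher under IgG. Of all genes, 3.13% were then lower and 3.04% higher under anti-ITGAV, and 2.91% and 5.5% under IgG.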

How the data were processed

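The 16 polyA RNA libraries are those of the 4 groups given above, 4 in each, grouped by their labels. The deposited count table holds whole-number reads per gene, made by the authors with no normalization. A deposited FPKM table of the same genes divides by gene length and depth. The gene lengths beside them are also deposited values. The submitters' processing notes name HISAT2, StringTie and featureCounts, and mm10 or GRCm38.p6 as the build, with no role, version or option stated. The labels' protocols describe second-strand synthesis with dTTP, which does not mark strand.

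Counts were tested with edgeR 4.0.16 (R 4.3.3): TMM scaling, filterByExpr with a minimum count of 10, which kept 15469 of 54532 genes and 99.95% of counts, 1 fit of 4 group means over all 16 libraries with the robust quasi-likelihood test, and Benjamini-Hochberg adjustment over all genes tested with a threshold of 0.05. SE is the log2 change divided by the root of F, and 95% intervals take it as normal. Intervals and counts rest on 27995035 to 43413650 counts per library. The steps were tested on simulated data. Figures were drawn with matplotlib 3.10.9 in Python 3.11.15.

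Every member is named, as are the 5 genes most like their mean and the closest to each member (1 of these is not reported here), Ctla2b, the tested genes nearest to a member, and up to 4 genes of a list with the smallest adjusted p in each coating contrast. Ccng2, Insr, Cdkn1b and relatives of members that did not pass were named after their values were seen. The members and lists were chosen with earlier results of these data known, so neither is independent support. GC content and shared stretches came from GENCODE M21 transcripts and promoters from RefSeq (GRCm38.p6), where 3 of 9 members matched. Windows that overlap an annotated exon are not printed. Alternatives were DESeq2 1.42.0, limma 3.58.1 on log2(FPKM + 1) and log2(FPKM + 0.1), other scaling, no low-count filter, each coating or antibody pair fitted alone, the replicate number as a block, leaving out each library, and a GC offset per library (lowess span 0.3) added after seeing the data.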

Additional observations from a re-analysis of the deposited data

Results flagged for a closer look

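Of the 36 sets of 4 libraries (9 genes in 4 groups), 1 held a library far from the others: Pik3ip1 in uncoated_IgG 1, at 4.60 CPM, against 2.10, 2.40 and 2.23 CPM in the other 3 libraries of that group. Chance flags about 1 in 20 such sets. Without it the log2 change of fibronectin over uncoated under IgG was -0.81 for Pik3ip1.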

How the results depend on the processing

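In edgeR as reported, the genes called numbered 876 for fibronectin against uncoated under anti-ITGAV, 586 for the same under IgG, 2 for anti-ITGAV against IgG on fibronectin, 2 for it on uncoated dishes, 11 for it averaged over coatings and 0 for the interaction (at an unadjusted p under 0.05 the interaction had 614). In that order, DESeq2 called 1601, 1040, 18, 28, 50 and 1, the GC offset 1942, 1711, 10, 7, 50 and 0, and limma on log2(FPKM + 1) without a filter 510, 309, 4 and 1 in the first 4. The 8 libraries of a contrast fitted alone gave 251 under anti-ITGAV and 0 for the antibody on fibronectin, where no low-count filter gave 4. Leaving out 1 library gave 428 to 1037, 253 to 1325, 1 to 5, 0 to 2, 4 to 22 and 0 to 0 calls. Those moving a coating count by over 1.5 times were uncoated_antiITGAV 1, 2 and 3 (530, 428 and 454), uncoated_IgG 1, 2 and 3 (253, 273 and 282), fibronectin_IgG 3 and 4 (279 and 320) and fibronectin_antiITGAV 3 and 4 (1325 and 578). The antibody count on fibronectin so moved without fibronectin_antiITGAV 1 and 3 (1 and 5). That on uncoated dishes was 0 without uncoated_antiITGAV 1 or 3 or uncoated_IgG 1 or 2, and 1 without fibronectin_antiITGAV 2 or 4, fibronectin_IgG 1 or 4, uncoated_antiITGAV 2 or uncoated_IgG 3 or 4. The averaged count was 22 without fibronectin_antiITGAV 3, and 4 to 7 without fibronectin_antiITGAV 1, 2 or 4, fibronectin_IgG 1, 2 or 3, uncoated_antiITGAV 3 or 4 or uncoated_IgG 1, 2 or 3. Same-numbered libraries correlated at -0.301 to 0.277 after the group means were removed, and differently numbered ones at -0.335 to 0.307. Of the 16, 5 correlated best with their own number. Whether the replicate numbers pair the samples is not stated, and these correlations, which can also hold each library's GC trend, cannot exclude it. With the number as a block, 360 genes were called for the coating under IgG and 0 for the antibody on uncoated dishes. The cause of these shifts was not tested.

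No antibody or interaction value of the 9 genes passed under any alternative run. Of 233 values under alternatives in each coating contrast, 11 under anti-ITGAV and 12 under IgG moved by more than their replicate spread, most of them on the FPKM scales with a pseudocount. DESeq2 and the GC offset also called Nrg2 under IgG and Gpr34 under anti-ITGAV, and limma on log2(FPKM + 1) without a filter did not call Nrg2 under anti-ITGAV, nor Gpr34, Gpr162, Pik3ip1 and Gria3 under IgG (on filtered log2(FPKM + 0.1), Gpr162 alone was lost). These calls too come from the contrasts that chose the genes and carry no weight as evidence. The numbers of all genes called by DESeq2, the GC offset and unfiltered limma are given above. Low counts limit Nrg2 and Gria3, and on fibronectin also Cd4, Pik3ip1 and Gpr162. In fibronectin_antiITGAV the libraries held 10 to 15 counts of Nrg2, 20 to 40 of Cd4 and 32 to 76 of Gria3. Those of Pik3ip1 were 36 to 59 and those of Gpr162 34 to 91.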
